A study of Mus musculus with 12 samples.

Results

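The genes described here are 43 histone acetylation genes: the enzymes that add acetyl groups (writers), those that remove them (erasers), the bromodomain proteins that bind acetylated lysine (readers), the scaffolds and coactivators that hold these enzymes in complexes, and 3 enzymes that make acetyl-CoA. They were taken by gene symbol from the 24674 genes of the deposited expression table, and each of the 43 was found once. Some belong by family or pathway and act mainly elsewhere than on histones. These include the mitochondrial Sirt3, Sirt4, Sirt5 and Acss1, the tubulin deacetylase Hdac6 and the polyamine deacetylase Hdac10. RNA was sequenced from 12 organoid cultures grown from basal cells of the prostate of wild-type C57BL/6 mice. The 4 groups of 3 received vehicle, UK5099, Butyrate, or UK5099 together with Butyrate (here the combination). UK5099 blocks the import of pyruvate into mitochondria by its carrier, and butyrate is a short-chain fatty acid that inhibits histone deacetylases. The labels give no dose, time or animal for these cultures, and nothing in them says that replicates came from separate animals, so p-values measure the spread between these samples.

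Histone acetylation loosens the contact between DNA and nucleosomes and marks active promoters and enhancers. Acetyltransferases take the acetyl group from acetyl-CoA, which the nucleus obtains from citrate through ATP citrate lyase or from acetate through acetyl-CoA synthetase. Histone deacetylases (HDACs) of classes I, II and IV depend on zinc, and butyrate inhibits several of them, whereas sirtuins depend on NAD+ and are not its targets. Bromodomain proteins carry transcription and chromatin-remodelling machinery to the acetylated sites. In the prostate, basal cells can give rise to luminal cells, and the study asked how pyruvate metabolism and histone acetylation bear on that transition.

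Values are TPM: fragments per gene divided by gene length and scaled to the same total in every sample. In this table the length is the whole genomic span with introns, so levels are compared between genes only after division by exonic length. Tests used limma on log2(TPM + 1) over all 24674 genes with Benjamini-Hochberg adjustment. A second fit used TPM divided by median-of-ratios size factors, which were 1.173 to 1.198 in vehicle, 1.06 to 1.08 in UK5099, 0.9499 to 0.956 in butyrate and 0.854 to 0.871 in the combination. The second scale matters because the deposited values of most genes were lower in the treated groups: over the 13345 genes that averaged 1 TPM or more, the median difference from vehicle was -0.12 with UK5099, -0.30 with butyrate and -0.41 for both agents together, and 0.00, -0.03 and -0.03 after rescaling. A gene is said below to have risen or fallen only when adjusted p was below 0.01 in the same direction on both scales. Of the 43 genes 39 averaged 1 TPM or more, and replicates varied by a median of 3.05% (coefficient of variation over the 43 genes and 4 groups).

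Depth was between 33252126 and 43499006 fragments per sample. UK5099 replicate 1 and combination replicate 1 stood apart from the other libraries of their groups, with chi-square values of 6.29 to 6.64 per gene against 1.93 to 2.65 for all other replicate pairs. The basal markers Krt5, Krt14 and Trp63 were present in every sample, as were the luminal markers Krt8, Krt18 and Krt19. The summed basal markers were 3507 to 3547 TPM in vehicle, 9746 to 10240 in UK5099, 4486 to 4676 in butyrate and 8067 to 8320 in the combination. The summed luminal markers were 4132 to 4301 TPM in vehicle, 2328 to 2487 in UK5099, 2241 to 2281 in butyrate and 1389 to 1576 in the combination. The 14 proliferation genes summed to 880.4 to 891.4, 651.0 to 695.1, 630.5 to 646.2 and 455.7 to 496.4 TPM in the same order. These sums are of deposited values, which understate genes with long introns. A sum thus weighs its genes unevenly and is compared between groups only, and the levels of other cell type markers below carry the same limit. Some members of the sums went the other way. Krt14 was 1365 to 1432 TPM with butyrate and 1651 to 1691 in vehicle. Rrm2 was 133 to 144 TPM with UK5099 and 122 to 126 in vehicle. With butyrate 2 of the 3 basal markers rose and 2 of the 3 luminal markers fell on both scales. Of the 14 proliferation genes 12 fell and 1 rose with UK5099 on both scales. Of the other cell types, Ptprc, which defines immune cells, was at most 0.00425 TPM in every sample, the endothelial genes Pecam1 and Cdh5 were at most 0.0339 TPM while Esam was 0.649 to 0.807 TPM in vehicle, 1.12 to 1.185 with UK5099, 1.41 to 1.63 with butyrate and 1.58 to 1.92 in the combination, and the macrophage-associated gene Cd68 was 23.8 to 24.8 TPM in vehicle and 86.4 to 97.1 TPM in the combination. The 5 fibroblast markers summed to at most 2.74 TPM except with butyrate (10.6 to 10.9 TPM, mostly Dcn), and smooth muscle and neuroendocrine markers summed to at most 1.26 and 0.645 TPM. H1f0 and Cdkn1a, chosen as a check of the response to butyrate, were 875 to 895 and 116 to 123 TPM in vehicle. With butyrate they were 828 to 839 and 77 to 79.6 TPM, and with the combination 691 to 698 and 94 to 102 TPM. On both scales neither of these 2 genes rose with butyrate and 1 fell. In bulk RNA, fewer cells of a type and less RNA per cell cannot be told apart. The part of the basal, luminal, proliferation, Cd68, Esam and fibroblast-marker differences in the results below was not tested.

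In vehicle-treated organoids the levels of the 43 genes spanned a wide range when fragments were divided by exonic length. Acly, the ATP citrate lyase, led with 211 ± 1.10 TPM on this exonic scale (SD, n = 3), followed by the reader Brd2 with 189 ± 1.49, and all 3 replicates of each lay above all 3 of the next gene. The class I deacetylases Hdac2 (68.5 ± 1.95) and Hdac3 (64.7 ± 0.842) and the corepressor scaffold Rcor1 (66.4 ± 2.05) came next, and Hdac2 and Rcor1 each overlapped the gene below them in order. Hdac1 stood at 45.8 ± 0.472 and Hdac8 at 4.16 ± 0.355, so the class I enzymes did not share a level. The highest acetyltransferases were Hat1, which acetylates newly made histone H4, with 60.7 ± 1.04, and Kat7, which acetylates histones H3 and H4, with 53.4 ± 0.810. Acss1 (13.6 ± 0.634) and Acss2 (8.16 ± 0.421) were far below Acly. The lowest were Sirt3 (2.89 ± 0.174) and Sirt5 (2.39 ± 0.0412), both mitochondrial sirtuins, and the class IIa deacetylase Hdac9 (0.348 ± 0.0247).

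None of the 43 genes passed both of the study's limits, an adjusted p below 0.01 and an absolute coefficient above 1, in any comparison by limma on the deposited values. The background share of all genes that did was 1.84% for UK5099, 3.54% in butyrate samples and 6.42% in combination samples, each against vehicle, and 1.01% for their interaction and 1.86% for butyrate against UK5099. At an unadjusted p below 0.05, 29, 33 and 38 of the 43 genes differed, against 47.3%, 56.3% and 60.6% of all genes. Those were 67.4%, 76.7% and 88.4% of the 43, beside 67.0%, 78.8% and 82.7% of genes of at least 1 TPM. A fit of recovered fragments with voom placed 1, 1 and 3 of the 43 past both limits. That 1 gene was Hdac9 for each single agent, and Acss1, Acss2 and Hdac9 for the combination, against 5.84%, 10.5% and 14% of all genes. For the interaction and for butyrate against UK5099 voom placed 2 of the 43 past both limits (Acss1 and Hdac9, against 2.67% and 7.26% of all genes). At an unadjusted p below 0.05 limma gave 18 and 33 for these 2 comparisons (31.5% and 50.6% of all genes). Among genes of at least 1 TPM those last shares were 43.5% and 70.8%, beside 41.9% and 76.7% of the 43. On log2(TPM + 1) of the deposited values the changes described below were thus mostly smaller than this limit. The study's methods give no pseudocount, and the 1 added here understates changes of low genes. With exonic lengths, which raise the TPM of genes with long introns, 3 combination coefficients exceeded 1 in size without rescaling. They were -1.20 for Kat2b, -1.57 for Acss1 and 1.30 for Acss2.

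With UK5099, 2 of the 43 genes rose (Acss2 and Sirt1), against 8.19% of all genes, and 7 fell (Acss1, Brd8, Hdac1, Hdac2, Kat2b, Kat5 and Kat7), against 13.7%. With butyrate, 3 rose (Brd2, Hdac11 and Sirt4), against 9.69%, and 12 fell (Acly, Brd1, Brd3, Brd8, Ep300, Hdac2, Hdac6, Kat2b, Kat5, Kat7, Ncor1 and Sin3a), against 20.3%. With the combination, 3 rose (Acss2, Brd2 and Sirt4), against 10.1%, and 17 fell, against 22.5%. Those 17 were Acss1, Brd1, Brd3, Brd8, Crebbp, Ep300, Hdac1, Hdac2, Hdac3, Hdac6, Kat2b, Kat5, Kat6a, Kat7, Ncoa2, Ncor1 and Sin3a. Among the genes of at least 1 TPM, a closer match to these well-detected genes, the shares that fell were 20.1%, 32.2% and 34.7%, beside 16.3%, 27.9% and 39.5% of the 43. The median of the 43 on the rescaled values was -0.01 for UK5099 and -0.04 for each of the groups with butyrate. The shares that rose were 4.65%, 6.98% and 6.98% of the 43 beside 12.3%, 11.6% and 11.2% of those genes. Counts and medians of the 43 are thus read as a description of these genes and not as a result particular to them. On the deposited values alone the split was 2 higher and 17 lower for UK5099 (all genes 8.24% and 24.7%), 3 and 28 for butyrate (9.7% and 35.9%), and 3 and 31 for the combination (10.1% and 40.8%). The lower shares were 39.5%, 65.1% and 72.1% of the 43, beside 38.1%, 57.6% and 64.2% of genes of at least 1 TPM. On the rescaled values the split was 8 and 7 (13.5% and 13.7%), 12 and 12 (18.5% and 20.3%), and 12 and 17 (21.7% and 22.5%). Genes past the threshold in opposite directions on these scales were 1 with butyrate (Ncoa3, against 1.39% of all genes) and 4 with the combination (Hdac4, Hdac5, Ncoa3 and Sirt1, against 3.77%). On the deposited values the treated group did not overlap vehicle for 31, 34 and 39 of the 43 genes. Those were 72.1%, 79.1% and 90.7%, beside 66.8%, 80.0% and 83.7% of genes of at least 1 TPM. Where samples are said below not to overlap, this describes deposited values and is common among expressed genes.

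**Figure D1:**
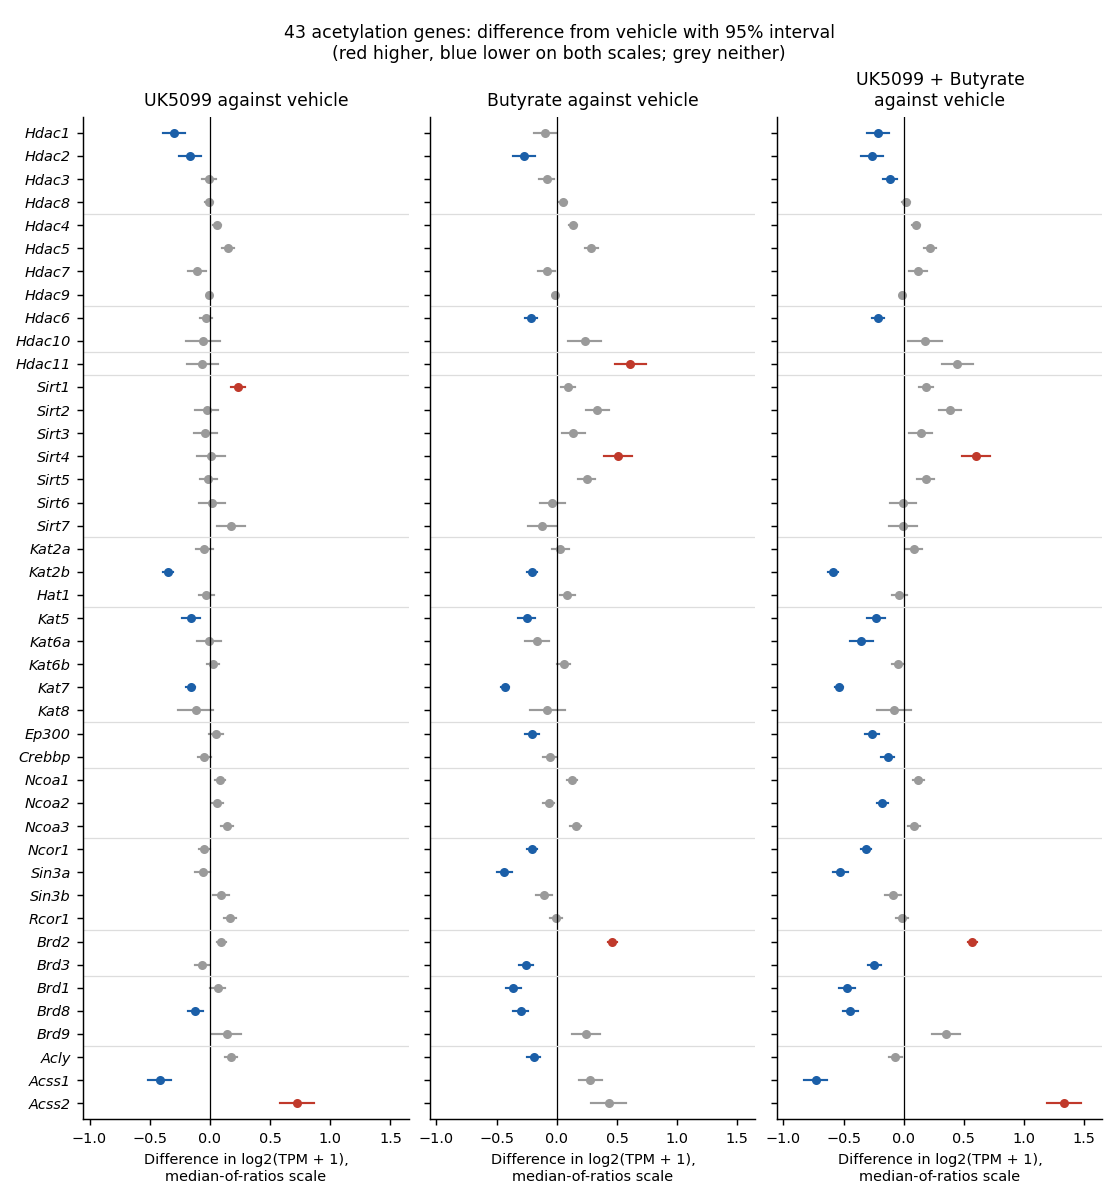
Each row is 1 of the 43 genes, ordered by role, and each panel is 1 treated group against vehicle. Points give the difference in log2(TPM + 1) on the median-of-ratios scale and bars the 95% confidence interval from limma (3 samples a group). Red genes were higher and blue genes lower on both scales, and grey genes passed on neither scale, on 1 scale only or in opposite directions. Acss2 lies farthest right for UK5099 (0.72) and for the combination (1.33), and Acss1 farthest left (-0.42 and -0.73).

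**Figure D2:**
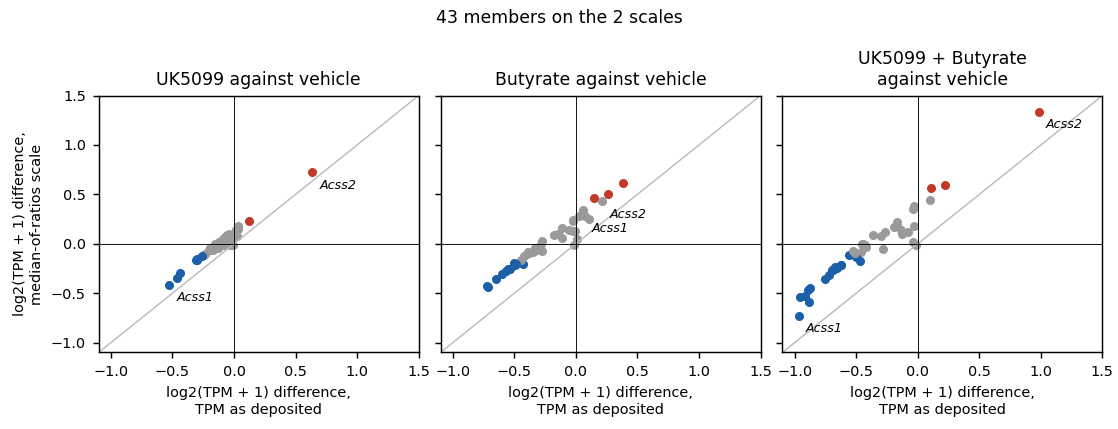
Each point is 1 of the 43 genes, with the difference from vehicle in log2(TPM + 1) from the deposited TPM on the horizontal axis and after median-of-ratios scaling on the vertical axis. The diagonal marks equal values, and colours are as in the plot of all 43 genes. Most points lie above the diagonal, and the distance grows from UK5099, where the median of the 43 moved from -0.13 to -0.01, to the combination, where it moved from -0.44 to -0.04.

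The 3 acetyl-CoA enzymes moved in different directions. Acss2, the nuclear and cytosolic synthetase that turns acetate into acetyl-CoA, rose with UK5099 and with the combination, whereas Acss1, its mitochondrial counterpart, fell in both. Acly, which makes acetyl-CoA from citrate, fell with butyrate and did not pass on both scales with UK5099. The promoters of these 3 genes are shown because all make acetyl-CoA, Acss2 and Acly outside mitochondria and Acss1 within them, and they differed in direction. RefSeq promoter windows (build GRCm38.p6) were found for 36 of the 43 genes, and the 250 bases before the annotated start are printed in the direction of the gene. They are chr2:155517793-155518042 on the plus strand for Acss2, chr2:150668241-150668490 on the minus strand for Acss1 and chr11:100528001-100528250 on the minus strand for Acly. Capitals mark the GC box GGGCGG and the CCAAT box CCAAT on either strand, which do not overlap here.
Acss2: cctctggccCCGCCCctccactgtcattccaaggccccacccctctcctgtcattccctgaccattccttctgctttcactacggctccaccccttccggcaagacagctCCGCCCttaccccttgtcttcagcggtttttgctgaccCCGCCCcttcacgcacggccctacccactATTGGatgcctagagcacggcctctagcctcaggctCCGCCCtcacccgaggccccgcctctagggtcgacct
Acss1: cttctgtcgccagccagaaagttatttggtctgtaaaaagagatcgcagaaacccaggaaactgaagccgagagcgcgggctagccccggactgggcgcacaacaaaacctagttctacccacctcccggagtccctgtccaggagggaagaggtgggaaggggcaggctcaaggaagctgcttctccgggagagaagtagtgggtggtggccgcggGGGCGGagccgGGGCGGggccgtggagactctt
Acly: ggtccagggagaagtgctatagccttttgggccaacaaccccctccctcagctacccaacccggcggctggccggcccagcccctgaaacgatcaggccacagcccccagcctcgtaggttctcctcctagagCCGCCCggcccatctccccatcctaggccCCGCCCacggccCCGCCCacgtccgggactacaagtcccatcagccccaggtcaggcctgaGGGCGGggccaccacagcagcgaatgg

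The Acss2 window held 4 GC boxes and 1 CCAAT box, the Acss1 window 2 GC boxes, and the Acly window 4 GC boxes. A GC box was found in 32.7% of all 32851 promoter windows of this length and in 34 of the 51 windows (66.7%) of the 36 matched genes. A CCAAT box was found in 33.8% of all windows and 35.3% of those of the matched genes. The E-box CACGTG (6.0% of all windows) and the sterol element TCACNCCAC (1.1% of all windows), a motif of sterol-responsive promoters, were searched on both strands and were not in these letters of the 3 windows. These matches describe the printed letters and no binding was measured.

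Acss2 (ENSMUSG00000027605, chr2:155359868-155427644, plus strand) is placed here by the coordinates of the deposited table, which the submitters' processing notes give as GRCm39. Its deposited values were 2.27, 2.20 and 2.04 TPM in vehicle, 4.04, 3.74 and 3.99 in UK5099, 2.86, 2.60 and 2.59 in butyrate, and 5.94, 4.86 and 5.05 in the combination. No treated group overlapped vehicle, and the 3 combination samples were the highest. Acss2 rose by 0.63 ± 0.06 on log2(TPM + 1) with UK5099 (SE, adjusted p = 2.69e-05, limma with Benjamini-Hochberg adjustment) and by 0.98 ± 0.06 with the combination (adjusted p = 3.64e-07). Butyrate alone gave 0.22 ± 0.06 (adjusted p = 0.0152, limma) on the deposited values and 0.43 after rescaling (adjusted p = 3.17e-04), so it did not pass on both scales. For the interaction, which asks whether the combination differed from the sum of the single agents, Acss2 gave 0.13 with a 95% interval of -0.07 to 0.33. Of its 9 values under 2500 fragments only 1 was a whole number, as happens where a counter divides a read among genes, so its level is uncertain.

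Acss1 (chr2:150460025-150510420, minus strand) had 1.91, 2.08 and 1.94 TPM in vehicle, 1.18, 1.04 and 0.976 in UK5099, 2.24, 2.15 and 2.01 in butyrate, and 0.498, 0.557 and 0.512 in the combination. The UK5099 samples lay below every vehicle sample and the combination samples below every UK5099 sample, while butyrate and vehicle overlapped. It fell by 0.53 ± 0.04 with UK5099 (adjusted p = 5.96e-06, limma) and by 0.97 ± 0.04 with the combination (adjusted p = 2.24e-08). Butyrate alone gave 0.07 ± 0.04 on the deposited values (adjusted p = 0.178, limma) and 0.28 after rescaling (adjusted p = 3.87e-04), so only the second passed. The interaction was -0.51 ± 0.06 (adjusted p = 2.43e-04, limma), so the combination lay below what the single agents added up to. All 12 of its values were whole fragments. In fragments the fall is larger than on log2(TPM + 1), which understates low genes: voom gave -0.77 for UK5099 and -1.46 for the combination.

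Acly (chr11:100367179-100418826, minus strand) had 38.2, 38.4 and 38.2 TPM in vehicle, 38.1, 39.4 and 39.8 in UK5099, 26.7, 26.7 and 27.0 in butyrate, and 27.2, 25.7 and 26.1 in the combination. Both groups with butyrate lay below both groups without it. With butyrate it fell by 0.50 ± 0.02 (adjusted p = 4.50e-08, limma), and by 0.19 after rescaling (adjusted p = 9.67e-05). The combination gave -0.52 on the deposited values but -0.07 after rescaling (adjusted p = 0.0287, limma), so that difference did not pass on both scales. UK5099 gave 0.03 (adjusted p = 0.336, limma), and 0.18 after rescaling (adjusted p = 2.88e-04), so only the second passed.

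**Figure D3:**
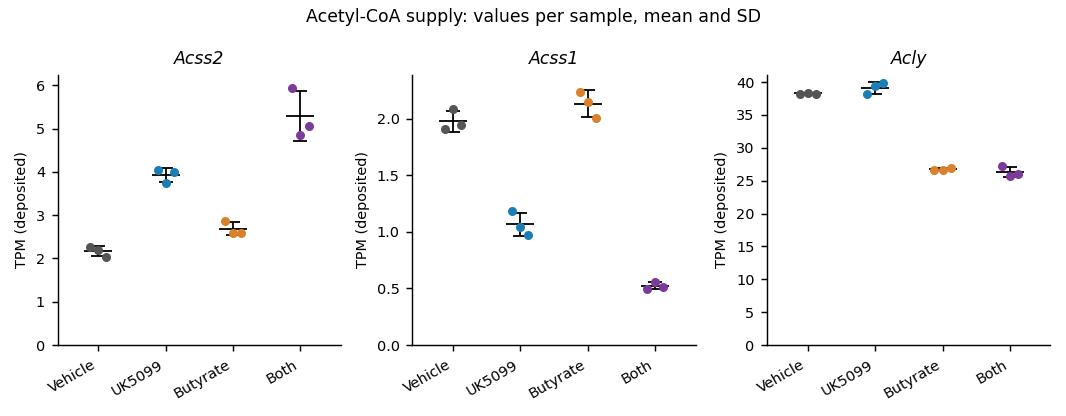
Deposited TPM of Acss2, Acss1 and Acly in each of the 12 samples, by group ("Both" is UK5099 with butyrate). Dots are samples, the horizontal dash is the mean and the bar the SD of 3 samples, and each axis starts at 0. Acss2 was highest in the combination (mean 5.28 TPM) and Acss1 lowest there (mean 0.523 TPM), while Acly was 25.7 to 27.2 TPM in the groups that received butyrate and 38.1 to 39.8 TPM in the others.

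Of the 11 HDACs, 2 fell with UK5099 (Hdac1 and Hdac2), 2 fell with butyrate (Hdac2 and Hdac6) and 4 fell with the combination (Hdac1, Hdac2, Hdac3 and Hdac6). Of all genes 13.7%, 20.3% and 22.5% fell, and of those of at least 1 TPM 20.1%, 32.2% and 34.7%. In the same order 8.19%, 9.69% and 10.1% of all genes rose. The only HDAC that rose in any of the 3 comparisons was Hdac11, with butyrate. Class I holds Hdac1, Hdac2 and Hdac3, the catalytic subunits of the large nuclear corepressor complexes, and Hdac8, which works outside those complexes. Hdac2 (chr10:36850540-36877885, plus strand) had 19.3, 20.2 and 20.1 TPM in vehicle, 15.1, 16.1 and 16.4 in UK5099, 12.7, 13.6 and 13.0 in butyrate, and 11.2, 11.9 and 12.4 in the combination. All 9 treated samples lay below all 3 vehicle samples. It fell by 0.31 with UK5099, by 0.57 with butyrate and by 0.70 with both agents (SE 0.04 for each, adjusted p = 2.18e-04, 1.38e-06 and 2.10e-07, limma), and by 0.16, 0.27 and 0.26 after rescaling. The UK5099 call was narrow on the second scale (adjusted p = 9.85e-03, limma) and was lost on leaving out any single library other than vehicle replicate 1, butyrate replicate 2 or combination replicate 1 (9 libraries, adjusted p 0.0125 to 0.0392).

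Hdac1 (chr4:129409897-129436506, minus strand) had 10.6, 10.6 and 10.3 TPM in vehicle, 7.04, 7.999 and 7.51 in UK5099, 7.83, 8.13 and 7.59 in butyrate, and 6.40, 6.25 and 6.73 in the combination. Every treated sample was again below every vehicle sample. It fell by 0.44 ± 0.04 with UK5099 (adjusted p = 2.17e-05, limma) and by 0.63 ± 0.04 with the combination (adjusted p = 5.10e-07), and by 0.30 and 0.21 after rescaling. Butyrate gave -0.38 on the deposited values and -0.10 after rescaling (adjusted p = 0.0831, limma). Only 3 of its 12 values were whole fragments, so its level is uncertain as for Acss2.

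Hdac3 had 24.1, 24.7 and 24.04 TPM in vehicle, 22.2, 21.5 and 21.6 in UK5099, 18.1, 18.4 and 18.5 in butyrate, and 16.7, 15.9 and 15.8 in the combination. The 4 groups did not overlap. Only the combination passed on both scales, with -0.56 ± 0.02 on the deposited values (adjusted p = 1.52e-08, limma) and -0.12 after rescaling (adjusted p = 4.22e-03), and this call was lost without vehicle replicate 2 or 3 or combination replicate 2 or 3 (adjusted p 0.0148 to 0.0181). Hdac8, on the X chromosome, was low at 0.146 to 0.173 TPM in vehicle, 0.125 to 0.152 in UK5099, 0.154 to 0.177 in butyrate and 0.113 to 0.137 in the combination. None of its differences passed on both scales (adjusted p = 0.143, 0.706 and 0.0381 on the deposited values, limma), and the combination gave -0.04 on the deposited values and 0.02 after rescaling. Its span of 220721 bp keeps its TPM low, though it had 211 to 364 fragments per sample. In the fit of recovered fragments by voom, butyrate gave 0.39 ± 0.09 log2 units (adjusted p = 1.21e-03, limma). By voom UK5099 and the combination gave -0.10 and 0.14 (adjusted p = 0.481 and 0.245, limma).

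Class II and IV enzymes differed more among themselves. Hdac6, a mostly cytoplasmic deacetylase of tubulin, had 9.73, 9.90 and 9.50 TPM in vehicle, 8.42, 8.54 and 8.62 in UK5099, 6.39, 6.71 and 6.67 in butyrate, and 5.83, 5.78 and 6.21 in the combination. It fell by 0.50 ± 0.03 with butyrate (adjusted p = 1.78e-07, limma) and by 0.63 ± 0.03 with the combination (adjusted p = 2.27e-08), and by 0.21 in each after rescaling. UK5099 gave -0.17 on the deposited values and -0.03 after rescaling (adjusted p = 0.316, limma). Hdac11, the only class IV enzyme (chr6:91133647-91151674, plus strand), had 2.98, 2.89 and 2.47 TPM in vehicle, 2.36, 2.27 and 2.41 in UK5099, 4.32, 3.76 and 3.67 in butyrate, and 2.89, 3.12 and 3.14 in the combination. The butyrate samples were the 3 highest of the 12. Hdac11 rose by 0.38 ± 0.06 with butyrate (adjusted p = 4.43e-04, limma), and by 0.61 after rescaling. With the combination it gave 0.10 on the deposited values (adjusted p = 0.198, limma) and 0.44 after rescaling (adjusted p = 9.53e-05). Only 1 of its 12 values was a whole fragment count, so its level is uncertain.

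Hdac9, a class IIa enzyme that represses MEF2 targets, spans 869516 bp of chromosome 12, so its deposited values were only 0.00986 to 0.0113 TPM in vehicle and its difference on log2(TPM + 1) was -0.01 in each comparison with vehicle. Its fragments were whole in all 12 samples, at 65, 55 and 73 in vehicle, 15, 22 and 14 in UK5099, 4, 5 and 3 in butyrate, and 9, 7 and 13 in the combination. Every treated sample lay below every vehicle sample, and the butyrate samples were the 3 lowest. Pooled over a group and divided by depth, the ratio to vehicle was 0.256 with UK5099 (95% exact interval 0.184 to 0.350, counting error only), 0.0620 in butyrate samples (0.0315 to 0.111) and 0.133 in combination samples (0.0870 to 0.198). In the fit of recovered fragments by voom, Hdac9 differed from vehicle by -1.92 ± 0.25, -3.88 ± 0.40 and -2.80 ± 0.34 log2 units (adjusted p = 9.08e-07, 1.46e-08 and 1.82e-07, limma). The voom interaction was 3.00 ± 0.54 (adjusted p = 1.56e-04, limma). Hdac9 was the lowest of the 43 genes, and the largest relative difference among them rests on these few fragments.

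None of the other class II enzymes passed in the same direction on both scales against vehicle. Hdac4 and Hdac5, which shuttle between nucleus and cytoplasm, passed on both with the combination but in opposite directions, with -0.13 and -0.17 on the deposited values and 0.10 and 0.22 after rescaling. Hdac5 had 5.38, 5.35 and 5.02 TPM in vehicle, 5.44, 5.40 and 5.28 in UK5099, 5.34, 5.21 and 5.50 in butyrate, and 4.50, 4.65 and 4.56 in the combination, so only the combination stood below the others. Hdac7, also of class IIa, had 5.56, 5.37 and 5.68 TPM in vehicle, 4.64, 4.47 and 4.56 in UK5099, 3.94, 4.10 and 4.37 in butyrate, and 4.30, 4.49 and 4.49 in the combination. Each treated group lay below vehicle, and the combination overlapped both single agents. Hdac10, a polyamine deacetylase, was 3.12 to 4.31 TPM over the 12 samples and gave -0.19 with the combination on the deposited values (adjusted p = 0.0179, limma) and 0.17 after rescaling.

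**Figure D4:**
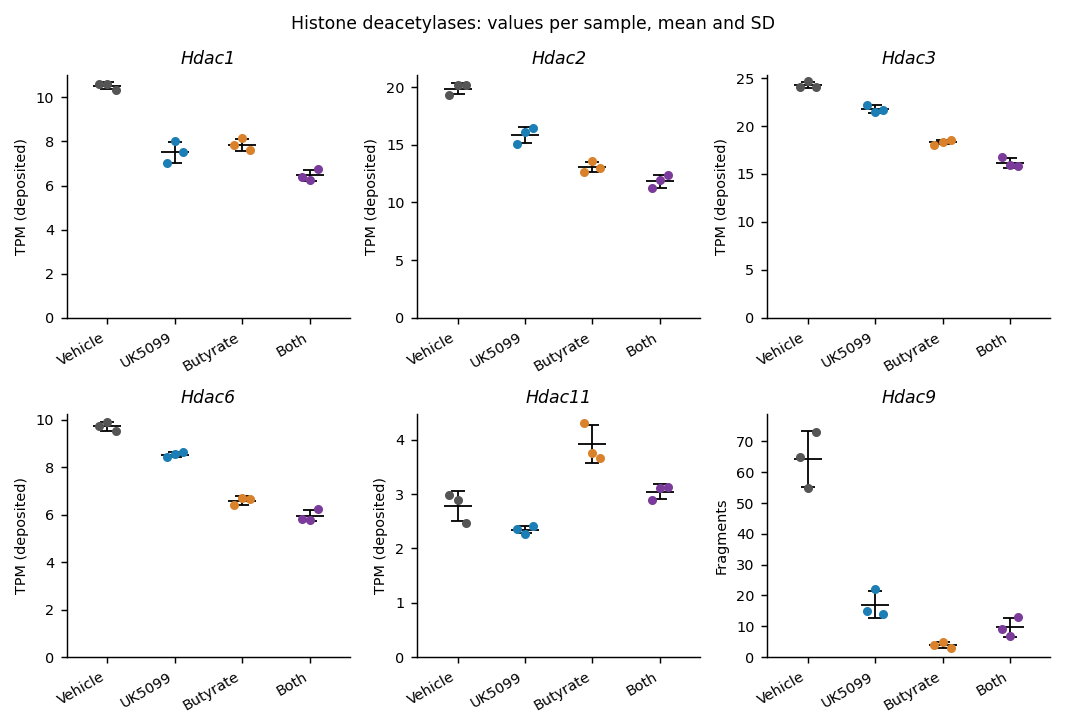
Values of 6 histone deacetylases in each sample, as deposited TPM for Hdac1, Hdac2, Hdac3, Hdac6 and Hdac11 and as recovered fragments for Hdac9. Dots are samples, the dash is the mean and the bar the SD of 3 samples, and "Both" is UK5099 with butyrate. On these values Hdac1, Hdac2, Hdac3 and Hdac6 were lowest in the combination. Hdac11 was highest with butyrate (mean 3.92 TPM), and Hdac9 was lowest there (3 to 5 fragments). After rescaling Hdac1 was lower with UK5099 (-0.30 from vehicle) than with the combination (-0.21). Rescaled Hdac2 was -0.27 with butyrate and -0.26 with the combination, and Hdac6 was -0.21 in each.

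Among the 7 sirtuins, 1 rose in each comparison with vehicle and none fell. Of all genes 8.19%, 9.69% and 10.1% rose with UK5099, butyrate and the combination, and 13.7%, 20.3% and 22.5% fell. Sirt4, a mitochondrial sirtuin (chr5:115616069-115622784, minus strand), had 3.66, 3.81 and 3.82 TPM in vehicle, 3.36, 3.58 and 3.37 in UK5099, 4.31, 5.19 and 4.63 in butyrate, and 4.62, 4.57 and 4.51 in the combination. Both groups with butyrate lay above both groups without it. Sirt4 rose by 0.26 ± 0.05 with butyrate (adjusted p = 1.12e-03, limma) and by 0.23 ± 0.05 with the combination (adjusted p = 2.40e-03), and by 0.51 and 0.60 after rescaling. The combination call was lost without vehicle replicate 1 (adjusted p = 0.0109, limma) and without both libraries that stood apart (adjusted p = 0.0160).

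Sirt1, the main nuclear sirtuin, had 3.52, 3.56 and 3.57 TPM in vehicle, 3.76, 3.99 and 4.12 in UK5099, 3.22, 3.06 and 3.04 in butyrate, and 2.98, 3.02 and 3.12 in the combination. The UK5099 samples were the 3 highest and the butyrate-containing samples the 6 lowest. Sirt1 rose by 0.12 ± 0.03 with UK5099 (adjusted p = 5.37e-03, limma) and by 0.23 after rescaling, but leaving out any vehicle library or UK5099 replicate 2 or 3 ended the call (adjusted p 0.0151 to 0.0205). With the combination its direction depended on the scale, at -0.17 on the deposited values and 0.18 after rescaling. Sirt2, a mostly cytoplasmic sirtuin, had 7.79 to 8.34 TPM in vehicle, 7.003 to 7.51 in UK5099, 8.27 to 8.84 in butyrate and 7.50 to 8.21 in the combination. The mitochondrial Sirt5 had 0.855 to 0.889, 0.718 to 0.846, 0.946 to 1.07 and 0.804 to 0.873 TPM in the same order. Neither passed on both scales against vehicle, though both were higher after rescaling with butyrate (0.34 and 0.25). Sirt3, Sirt6 and Sirt7 did not pass on both scales in any comparison with vehicle, with rescaled differences between -0.12 and 0.17, and the values of Sirt3 and Sirt7 were never whole fragments.

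Of the 10 acetyltransferases none rose, 3 fell with UK5099, 4 fell with butyrate and 6 fell when both agents were given, beside 20.1%, 32.2% and 34.7% of all genes of at least 1 TPM that fell. Of those genes 12.3%, 11.6% and 11.2% rose. The median rescaled difference of the 10 was -0.05, -0.12 and -0.18 in the same order, beside medians of 0.00, -0.03 and -0.03 over all genes of at least 1 TPM. Kat7 (HBO1, chr11:95165085-95201072, minus strand), a MYST-family enzyme, had 14.7, 14.8 and 14.3 TPM in vehicle, 11.6, 11.5 and 11.9 in UK5099, 8.37, 8.32 and 8.64 in butyrate, and 6.85, 7.02 and 7.17 in the combination. The 4 groups did not overlap and stepped down in that order. Kat7 fell by 0.30 ± 0.02, 0.72 ± 0.02 and 0.96 ± 0.02 (adjusted p = 3.75e-06, 4.91e-09 and 4.58e-10, limma), and by 0.16, 0.43 and 0.54 after rescaling.

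Kat2b (PCAF, chr17:53873889-53979748, plus strand), a GNAT-family enzyme that acetylates histone H3, had 2.97, 3.04 and 2.87 TPM in vehicle, 1.84, 1.89 and 1.88 in UK5099, 2.01, 1.91 and 1.87 in butyrate, and 1.14, 1.13 and 1.16 in the combination. On these values UK5099 and butyrate overlapped each other, and the combination lay below both. Kat2b fell by 0.46 ± 0.02, 0.43 ± 0.02 and 0.89 ± 0.02 (adjusted p = 1.61e-07, 8.22e-08 and 5.21e-10, limma), and by 0.35, 0.21 and 0.59 after rescaling. Butyrate against UK5099 gave 0.03 on the deposited values (adjusted p = 0.275, limma) and 0.14 after rescaling (adjusted p = 2.24e-04). The interaction of Kat2b was 0.01 with a SE of 0.03 (adjusted p = 0.890, limma). Only 3 of its 11 values under 2500 fragments were whole numbers, which leaves its level uncertain. Its paralog Kat2a (GCN5) had 27.6 to 29.1 TPM in vehicle, 23.9 to 25.0 in UK5099, 22.9 to 23.5 in butyrate and 20.8 to 22.5 in the combination. Kat2a did not pass on both scales in any of the 3, with -0.36 on the deposited values and 0.08 after rescaling for the combination.

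Kat5 (TIP60), the catalytic subunit of the NuA4 complex, had 27.3, 26.7 and 27.5 TPM in vehicle, 22.1, 22.0 and 21.5 in UK5099, 18.1, 19.1 and 17.5 in butyrate, and 16.8, 16.4 and 16.8 in the combination. It fell by 0.30 ± 0.03, 0.55 ± 0.03 and 0.68 ± 0.03 (adjusted p = 2.10e-05, 1.36e-07 and 2.12e-08, limma), and 4 of its 12 values were whole fragments. After rescaling the falls were by 0.16, 0.25 and 0.23, and the UK5099 call was lost without vehicle replicate 1 or 3 or UK5099 replicate 3 (adjusted p 0.0117 to 0.0162). Kat6a, which acetylates histone H3, had 9.85, 9.14 and 9.05 TPM in vehicle and 4.70, 5.34 and 5.34 in the combination, where it fell by 0.76 ± 0.05 (adjusted p = 3.55e-07, limma) and by 0.35 after rescaling. Its UK5099 values (8.29, 8.04 and 8.79) and butyrate values (6.57, 6.62 and 6.59) did not pass on both scales. Kat6b, Kat8 and Hat1 did not pass on both scales in any of the 3 comparisons, with rescaled differences of -0.12 to 0.09, although on the deposited values each was lower in the combination (-0.28, -0.46 and -0.42).

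Ep300 (p300) and Crebbp (CBP), related coactivators that acetylate enhancer histones, both fell with the combination, and Ep300 also fell with butyrate. Ep300 (chr15:81469552-81536278, plus strand) had 14.7, 14.6 and 14.4 TPM in vehicle, 13.5, 13.1 and 14.4 in UK5099, 10.2, 9.74 and 10.2 in butyrate, and 8.54, 8.63 and 8.77 in the combination. It fell by 0.50 ± 0.03 with butyrate (adjusted p = 4.40e-07, limma) and by 0.69 ± 0.03 with the combination (adjusted p = 2.78e-08), and by 0.20 and 0.27 after rescaling. UK5099 gave -0.09 (adjusted p = 0.0449, limma) on the deposited values and 0.05 after rescaling. Crebbp (chr16:3899192-4031861, minus strand) had 5.04, 4.92 and 4.72 TPM in vehicle, 4.25, 4.03 and 4.42 in UK5099, 3.77, 3.64 and 3.79 in butyrate, and 3.12, 3.15 and 3.19 in the combination. It fell with the combination, by 0.50 ± 0.03 (adjusted p = 2.11e-07, limma) and by 0.13 after rescaling (adjusted p = 9.42e-04). With butyrate alone Crebbp gave -0.32 on the deposited values and -0.06 after rescaling (adjusted p = 0.0688, limma), so only the first passed.

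The corepressor scaffolds hold HDACs on chromatin. Sin3a (chr9:56979324-57035650, plus strand), the scaffold of the Sin3 complex with Hdac1 and Hdac2, had 8.02, 8.22 and 8.24 TPM in vehicle, 6.85, 6.88 and 7.31 in UK5099, 4.46, 4.67 and 4.64 in butyrate, and 3.71, 3.96 and 3.87 in the combination. The 4 groups did not overlap. Sin3a fell by 0.71 ± 0.03 with butyrate (adjusted p = 2.38e-08, limma) and by 0.92 ± 0.03 with the combination (adjusted p = 2.48e-09), and by 0.44 and 0.53 after rescaling. Ncor1, which binds and activates Hdac3, had 9.04, 8.90 and 8.45 TPM in vehicle, 7.50, 7.56 and 7.88 in UK5099, 6.04, 5.96 and 5.99 in butyrate, and 4.82, 4.96 and 5.09 in the combination. It fell by 0.48 ± 0.03 with butyrate and by 0.72 ± 0.03 with the combination (adjusted p = 2.06e-07 and 8.86e-09, limma), and by 0.21 and 0.31 after rescaling. Sin3b and Rcor1, the scaffold of the CoREST complex, did not pass on both scales against vehicle, with rescaled combination differences of -0.09 and -0.02.

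The p160 coactivators (Ncoa1, Ncoa2 and Ncoa3), which bring acetyltransferases to nuclear receptors, did not move together. Ncoa2 had 2.24, 2.17 and 2.17 TPM in vehicle and 1.28, 1.29 and 1.34 in the combination, and it fell there by 0.47 ± 0.02 (adjusted p = 7.48e-08, limma) and by 0.18 after rescaling. Ncoa3 had 5.65, 5.58 and 5.41 TPM in vehicle, 5.62, 5.40 and 5.88 in UK5099, 5.13, 4.94 and 5.14 in butyrate, and 4.23, 4.31 and 4.39 in the combination. Its sign depended on the scale, at -0.30 and 0.08 for the combination and at -0.11 and 0.16 for butyrate, each first on the deposited and then on the rescaled values. Ncoa1 stayed between 0.688 and 0.868 TPM over the 12 samples and did not pass on both scales.

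The 5 bromodomain readers split. Brd2 (chr17:34330997-34341608, minus strand), a BET protein that binds acetylated histone H4, rose with butyrate and the combination, whereas Brd3, the other BET protein among the 43, fell in both. Brd2 had 246.1, 247.2 and 247.6 TPM in vehicle, 232.2, 238.5 and 242.1 in UK5099, 272.7, 270.7 and 276.8 in butyrate, and 262.3, 268.4 and 266.9 in the combination. Every sample with butyrate lay above every sample without it. Brd2 rose by 0.15 ± 0.02 with butyrate (adjusted p = 4.36e-05, limma) and by 0.11 ± 0.02 with the combination (adjusted p = 3.68e-04), and by 0.46 and 0.57 after rescaling. UK5099 gave -0.06 on the deposited values (adjusted p = 0.0249, limma) and 0.09 after rescaling.

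Brd3 (chr2:27335591-27397674, minus strand) had 9.22, 9.52 and 9.09 TPM in vehicle, 7.63, 8.03 and 8.16 in UK5099, 6.06, 6.06 and 6.13 in butyrate, and 5.62, 5.58 and 5.42 in the combination. It fell by 0.54 ± 0.02 with butyrate and by 0.65 ± 0.02 with the combination (adjusted p = 5.79e-08 and 9.10e-09, limma), and by 0.26 and 0.24 after rescaling. Brd1, the scaffold of an acetyltransferase complex with Kat7, had 15.4, 14.7 and 14.7 TPM in vehicle, 14.1, 14.0 and 14.3 in UK5099, 9.37, 8.94 and 9.11 in butyrate, and 7.14, 7.64 and 7.94 in the combination. The 6 butyrate-containing samples lay below the other 6. Brd1 fell by 0.65 ± 0.03 with butyrate and by 0.90 ± 0.03 with the combination (adjusted p = 1.28e-07 and 9.10e-09, limma), and by 0.36 and 0.47 after rescaling.

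Brd8, a NuA4 subunit, had 17.1, 16.8 and 16.9 TPM in vehicle, 13.8, 13.8 and 14.2 in UK5099, 11.4, 10.4 and 10.7 in butyrate, and 8.85, 8.57 and 8.96 in the combination. It fell in all 3 comparisons, by 0.26 ± 0.03, 0.60 ± 0.03 and 0.87 ± 0.03 (adjusted p = 7.75e-05, 1.18e-07 and 5.64e-09, limma), and by 0.12, 0.30 and 0.44 after rescaling. The UK5099 call of Brd8 was lost on leaving out any single library other than butyrate replicate 1 or 2 or combination replicate 2 (9 libraries, adjusted p 0.0105 to 0.0269). Brd9, a subunit of a BAF chromatin-remodelling complex, was 4.96 to 5.98 TPM over the 12 samples. It overlapped vehicle in every treated group and gave -0.04 on the deposited values and 0.35 after rescaling for the combination.

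**Figure D5:**
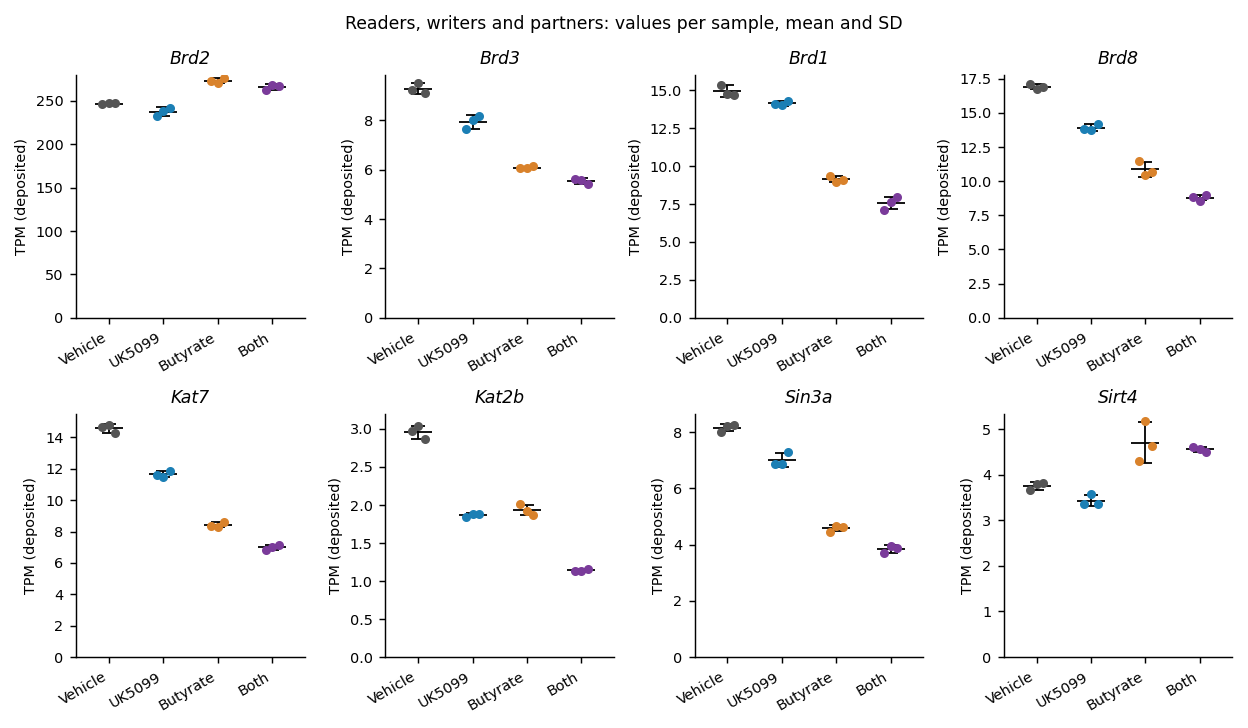
Deposited TPM of 4 readers (Brd2, Brd3, Brd1 and Brd8), 2 acetyltransferases (Kat7 and Kat2b), the scaffold Sin3a and the sirtuin Sirt4 in each sample. Dots are samples, the dash is the mean and the bar the SD of 3 samples, axes start at 0, and "Both" is UK5099 with butyrate. On these values Brd2 and Sirt4 were higher in the groups with butyrate (Brd2 means 273.4 and 265.9 TPM against 247.0 in vehicle). The other 6 genes were lowest in the combination. After rescaling Brd3 was -0.26 from vehicle with butyrate and -0.24 with the combination.

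Whether the combination differed from the sum of the single agents was asked by the interaction term. It was higher than 0 for 1 of the 43 genes (Hdac7), against 6.35% of all genes, and lower for 4 (Acss1, Hdac5, Ncoa3 and Rcor1), against 6.03%. At an unadjusted p below 0.05 the interaction differed from 0 for 18 of the 43, against 31.5% of all genes. For Hdac7 the coefficient was 0.31 ± 0.04 (adjusted p = 8.77e-04, limma), so the combination lay above what the single agents added up to. Hdac5 gave -0.22 ± 0.04 (adjusted p = 2.20e-03, limma), Ncoa3 -0.21 ± 0.04 (adjusted p = 3.86e-03) and Rcor1 -0.17 ± 0.04 (adjusted p = 8.47e-03). Rcor1 had 9.07, 8.72 and 8.45 TPM in vehicle, 8.68, 9.15 and 9.14 in UK5099, 6.97, 6.97 and 7.04 in butyrate, and 6.16, 6.26 and 6.36 in the combination. The Rcor1 call was lost on leaving out any single library other than vehicle replicate 1 or UK5099 replicate 1 (10 libraries, adjusted p 0.0145 to 0.0231). That of Ncoa3 was lost without vehicle replicate 3, butyrate replicate 1 or 3, or combination replicate 1 or 2 (adjusted p 0.0107 to 0.0124), and that of Hdac5 without both libraries that stood apart (adjusted p = 0.0167, limma).

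The single agents were also set against each other. Butyrate samples were higher than UK5099 samples for 6 of the 43 genes (Acss1, Brd2, Hdac11, Sirt2, Sirt4 and Sirt5), against 9.97% of all genes, and lower for 15, against 17.8%. Of genes of at least 1 TPM 11.8% were higher and 29.2% lower. Those 15 were Acly, Acss2, Brd1, Brd3, Brd8, Ep300, Hdac6, Kat7, Ncoa2, Ncor1, Rcor1, Sin3a, Sin3b, Sirt1 and Sirt7. The widest rescaled differences were 0.70 for Acss1 and 0.67 for Hdac11 upward, and -0.43 for Brd1 and -0.38 for Sin3a downward. The Sirt2 call was lost without both libraries that stood apart (adjusted p = 0.0122, limma). All 4 corepressor scaffolds were lower with butyrate than with UK5099. Acss2 differed by -0.42 ± 0.06 (adjusted p = 3.49e-04, limma), and by -0.29 after rescaling, where the call was lost without butyrate replicate 2 or 3 or UK5099 replicate 1 or 3 (adjusted p 0.0157 to 0.0182).

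The partners of these enzymes were counted from lists of complex subunits that are not among the 43. Of 36 subunits of deacetylase complexes, 4 rose and 12 fell with UK5099, 3 rose and 19 fell with butyrate, and 3 rose and 20 fell with the combination. Of 39 subunits of acetyltransferase complexes, none rose and 14 fell with UK5099, 1 rose and 21 fell with butyrate, and none rose and 27 fell with the combination. Of 28 other bromodomain and YEATS readers, 1 rose and 9 fell, 4 rose and 16 fell, and 1 rose and 16 fell. The shares that fell were thus 33.3%, 52.8% and 55.6% of the first list, 35.9%, 53.8% and 69.2% of the second and 32.1%, 57.1% and 57.1% of the last. Of all genes 13.7%, 20.3% and 22.5% fell, and of those of at least 1 TPM 20.1%, 32.2% and 34.7%. Of all genes 8.19%, 9.69% and 10.1% rose. These lists were not tested as sets. The median rescaled differences of the 3 lists with the combination were -0.14, -0.17 and -0.15, beside -0.03 over all genes of at least 1 TPM. Brms1, a Sin3 complex subunit, averaged 11.3 ± 1.43 TPM in vehicle and 3.83 ± 0.113 in the combination (SD, n = 3). Chd3, a remodelling ATPase of the NuRD complex, averaged 36.1 ± 0.260 and 15.5 ± 0.261 TPM in these groups. Rcor2, a CoREST scaffold, was among the few that rose, from 11.03 ± 0.377 TPM in vehicle to 14.6 ± 0.265 with butyrate. In the acetyltransferase list, Jade2, a partner of Kat7, averaged 3.11 ± 0.215 TPM in vehicle and 0.957 ± 0.105 in the combination, and Kansl3, a partner of Kat8, averaged 11.6 ± 0.244 and 5.16 ± 0.277. Among the readers, Pbrm1, a subunit of the PBAF remodelling complex, averaged 9.96 ± 0.0542 and 3.98 ± 0.138 TPM, and Zmynd8 rose with butyrate from 5.63 ± 0.0582 to 6.40 ± 0.111 TPM. With the combination Brms1, Chd3, Jade2, Kansl3 and Pbrm1 gave -1.34, -1.17, -1.07, -1.04 and -1.14 on the deposited values. After rescaling they gave -0.94, -0.72, -0.78, -0.63 and -0.74, none above 1 in size. With butyrate Rcor2 and Zmynd8 gave 0.38 and 0.16 on the deposited values, and 0.67 and 0.43 after rescaling.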

How the data were processed

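RNA-seq was run on 12 basal-derived mouse prostate organoid samples in 4 groups of 3. The authors deposited 1 table of TPM values. Per the labels, libraries were rRNA-depleted, mRNA-enriched, dUTP-marked and paired-end. The submitters' processing notes name STAR 2.7.9a, Partek and GRCm39, whereas the study's methods name RSEM and GRCm38, and 2.08% of matched nuclear genes had GRCm38 coordinates. Each length in the deposited table was the genomic span, so TPM here counts introns in the length. Whether counting used strand is not given in the sources used here. Whole fragments were recovered for 49.7% to 59.2% of values per sample (tolerance 0.02), from 33252126 to 43499006 fragments. Among protein-coding genes under 1000 fragments the share was 74.6% to 75.9%. For the genes described here a tolerance of 0.05 was used, on values under 2500 fragments. How many of the other values rest on divided reads, and how many were whole but missed the tolerance, was not tested. Intervals on fragments cover counting error only.

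limma 3.58.1 (R 4.3.3) fitted log2(TPM + 1) with UK5099, butyrate and their interaction over all 12 samples and 24674 genes, with Benjamini-Hochberg adjustment. Median-of-ratios scaling gave the second scale. The study's limits were adjusted p below 0.01 and absolute coefficient above 1. Members and lists were chosen with earlier results of these data known. Every member is accounted for by role. Full statistics went to the 5 highest and 5 lowest coefficients with adjusted p below 0.01 in each comparison with vehicle, the class I HDACs, Ep300, Crebbp and the acetyl-CoA enzymes, and at most the 2 largest changes of each other list were named. Values were added for further members after they were seen. Alternatives were a pseudocount of 0.1, a mean of at least 1 TPM, voom on recovered fragments (TMM factors computed in R), exonic lengths (GENCODE, 23913 genes), a trended prior, 6-sample fits, a replicate block, an adjusted p of 0.05 and leaving out libraries. On simulated data the fit recovered 166 of 200 changed genes for UK5099 and 164 of 200 for butyrate among 24674 genes, with 0 unchanged genes called.

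Same-numbered samples of different groups did not deviate together (correlation -0.107 to 0.0294), so replicate numbers were not treated as pairs. Markers that the table does not hold were not analysed here.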

Additional observations from a re-analysis of the deposited data

Results flagged for a closer look

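For 5 of the 43 genes the effect of UK5099 differed between organoids without and with butyrate by the interaction term of limma, on both scales. The term was higher than 0 for 2.326% of the 43 and lower for 9.302%. Among genes of at least 1 TPM these shares were 8.985% and 10.004%, so such calls were not more frequent among the 43. The interaction coefficient on log2(TPM + 1) was -0.51 for Acss1 (adjusted p = 2.43e-04), where UK5099 gave a larger drop beside butyrate. It was 0.31 for Hdac7 (adjusted p = 8.77e-04), where the deposited values of UK5099 and the combination overlapped. It was -0.22 for Hdac5 (adjusted p = 2.20e-03), -0.21 for Ncoa3 (adjusted p = 3.86e-03) and -0.17 for Rcor1 (adjusted p = 8.47e-03). In these genes the combination samples were the 3 lowest of the 12 on the deposited values. After rescaling the combination differed from vehicle by 0.22, 0.08 and -0.02 in the same order, so that ordering did not hold on both scales. Of these calls, those of Hdac5, Ncoa3 and Rcor1 were lost without both libraries that stood apart (adjusted p = 0.0167, 0.0235 and 0.0105).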

How the results depend on the processing

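No gene passed both limits on the deposited TPM. By voom 1, 1, 3, 2 and 2 genes did (UK5099, butyrate and combination against vehicle, interaction, butyrate against UK5099). With the combination, pseudocount 0.1 gave 5, median-of-ratios scaling 1 and exonic length 3, pseudocount 0.1 gave 1 for the interaction, and exonic length gave 1 for butyrate against UK5099. Leaving out 1 library gave 0 to 1 with the combination and 0 to 0 otherwise. Counts at adjusted p below 0.01 depended on scaling. With UK5099 they were 8 higher and 7 lower by median of ratios, 9 and 9 by voom, and 1 higher with 6 samples. With butyrate they were 12 and 12, 14 and 16, 7 higher by exonic length, 1 higher with 6 samples and 5 higher at adjusted p below 0.05. With the combination they were 12 and 17, and 13 and 19. Leaving out 1 library gave 1 to 2 higher and 16 to 18 lower (UK5099), 3 to 4 and 26 to 28 (butyrate), and 2 to 3 and 31 to 33 (combination). For calls on both scales these ranges were 1 to 2 and 4 to 7, 3 to 4 and 12 to 15, and 2 to 3 and 16 to 19, with 1 to 2 and 2 to 5 for the interaction and 6 to 6 and 14 to 17 for butyrate against UK5099. Calls on both scales were 1 higher with UK5099 and with butyrate in 6-sample fits, and 5 higher with butyrate at adjusted p below 0.05, where the interaction gave 2 higher and 9 lower. With exonic length as the second scale 16, 24 and 29 genes were lower. Without both libraries that stood apart, chosen after seeing the data, 4 were lower with UK5099 (Brd8, Hdac2 and Kat5 were lost) and 2 for the interaction. The cause was not tested.

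With the replicate block, calls on both scales were 1 higher for UK5099 (1 on the deposited scale too) and 2 higher for the interaction. Sirt1 lost its UK5099 call (adjusted p = 0.0121, limma) and Rcor1 its interaction call (adjusted p = 0.0247).

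Over all 43 genes the sign changed by median of ratios for 9, 10, 13, 2 and 10 and by voom for 7, 10, 13, 1 and 11, in the order of comparisons above. Among the 124 coefficients recomputed under the alternatives, which include those past adjusted p below 0.01, signs reversed by median of ratios and by voom, in that order, for Ep300 with UK5099 (0.052, 0.038). With butyrate they did for Sirt1 (0.094, 0.12), Kat2a (0.030, 0.033), Hat1 (0.086, 0.10), Kat6b (0.057, 0.11) and Ncoa3 (0.16, 0.19). With the combination they did for Hdac8 (0.016, 0.14), Hdac4 (0.10, 0.20), Hdac5 (0.22, 0.27), Hdac7 (0.12, 0.14), Sirt1 (0.18, 0.24), Kat2a (0.084, 0.085) and Ncoa3 (0.083, 0.10). For butyrate against UK5099 they did for Ncoa3 (0.012, 0.035) and for Crebbp by voom (0.0061). Hdac8 with butyrate ranged from -0.001866 (without vehicle replicate 3) to 0.01716 when 1 library was left out.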
